A study of Mus musculus with 6 samples.

Results

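The genes described here are 41 that carry out DNA replication or belong to the S-phase expression program, from the subunits of the replicative helicase to the enzymes that make deoxynucleotides. They were found by gene symbol in the array annotation, and 40 of the 41 were measured, out of 30142 genes compared. The feature of Mcm7 also carries the symbols of the microRNA genes Mir93 and Mir25 and was therefore not used as a measurement of Mcm7. Each of the other members had 1 feature, so no choice between features was needed.

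Cells were sorted as cancer stem cells from squamous cell carcinomas of the skin, as cells without lineage markers and with Epcam, α6 integrin and CD34 on their surface. The tumours came from wild-type mice (WT, 3 samples) and from Sfrp1-/- mice (here Sfrp1_KO, 3 samples), which lack the gene of a secreted Frizzled-related protein that binds Wnt ligands. All mice, of both genotypes, had received the mutagen DMBA on 3 days, given in the labels as PD-23, 25 and 27, and then the tumour promoter TPA 2 times a week for up to 30 to 40 weeks. The labels give no sex, no age at sorting, no strain and no part of Sfrp1 that is deleted, and do not name the animal behind each sample. The p-values therefore rest on the spread among the samples of a genotype, part or all of which may be technical.

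DNA replication begins when the origin recognition complex, Cdc6 and Cdt1 load the MCM helicase onto origins in G1. In S phase, Cdc45, the GINS complex and Mcm10 turn that helicase into a moving fork, and polymerases held by the clamp PCNA copy both strands. The genes of these proteins are classical targets of E2F transcription factors, which the retinoblastoma family of pocket proteins restrains, and their transcripts are widely used as a sign of cycling cells in tumours and in the epidermis. In a bulk sample, fewer cells in S phase and less RNA of these genes per cell cannot be told apart.

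Signals are log2 probe set values as deposited, and a difference is Sfrp1_KO minus WT in those units. Their maximum, 19.93, exceeds what a scanner of 16 bits can give, which leaves a step of the scale unknown, and no difference is turned into a fold. Background on an array is the brightest of its 23 background probe sets, 4.82 to 5.10 over the arrays, and a gene at or under that level is called under background there. Array medians lay between 4.32 and 4.46. Sfrp1 itself stood at 5.71, 5.48 and 6.07 on the WT arrays and at 5.09, 5.11 and 5.15 on the Sfrp1_KO arrays, without overlap (limma adjusted p = 0.0969); a feature outside the deleted part would not check the genotype. The sort markers were read as transcripts. Epcam stood at 7.59 ± 1.03 in WT and at 5.03 ± 0.17 in Sfrp1_KO (SD, n = 3), where 2 of the 3 arrays were under background, and Itga6, which encodes α6 integrin, at 9.51 ± 0.64 and 7.62 ± 0.18. Cd34 stood at 9.42 ± 0.15 and 10.99 ± 0.71. Epcam and Itga6 passed by limma (adjusted p = 0.0455 and 0.0292) and Cd34 did not (limma adjusted p = 0.0714). Leaving out a single Sfrp1_KO array, whichever it was, ended both calls, as did leaving out WT replicate 1 for Epcam and WT replicate 2 for Itga6 (limma adjusted p up to 0.184 and 0.111). Cd34 passed without Sfrp1_KO replicate 3 (limma adjusted p = 0.00664). Of 9 keratinocyte genes 6 fell by limma, and all 9 were lower on every Sfrp1_KO array than on any WT array. Of all genes 1.45% fell by limma and 10.8% were lower on every Sfrp1_KO array. For genes above background on at least 1 array these shares were 3.11% and 17.1%. The mean level of the 9 keratinocyte genes was 9.43 to 10.59 in WT and 5.36 to 5.48 in Sfrp1_KO.

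None of the 40 replication genes passed the limma test over all genes in either direction (Benjamini-Hochberg adjusted p under 0.05), where 3.28% of all genes did, with 1.83% higher and 1.45% lower in Sfrp1_KO. Genes above background on at least 1 array, as 33 of the members were, passed at 6.97%, with 3.86% higher and 3.11% lower. At an unadjusted p under 0.05 limma counted 4 of the 40, all among the 33 above background on at least 1 array. The shares were 14.4% of all genes and 25.9% of genes above background on at least 1 array. At the adjusted threshold the same fit with the trend and robust options or without moderation of variances called 0 of the 40. The members' differences ran from -0.64 to 0.64, 21 of them above 0 and 19 below, with a median of 0.01 beside -0.01 over all genes. Over all 30142 genes 13807 were above 0. Of the 33 members above background on at least 1 array 18 were above 0, with a median of 0.02. Of 13710 such genes 5775 were, with a median of -0.05.

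The 95% limma intervals give a range for the difference of each gene by itself, without the adjustment over all genes that a call needed. An interval can therefore leave out 0 for a gene that was not called, as that of Rrm2 did (-0.95 to -0.34). For 37 of the 40 members the whole 95% interval lay within 1 log2 unit of 0 in either direction, as it did for 89.3% of all genes. For 26 it lay within 0.5, as for 64.4% of all genes. Both counts include the 7 members under background on all 6 arrays, from whose intervals no such range is read. Among the 33 members above background on at least 1 array, 30 lay within 1 and 19 within 0.5. The shares of all genes above background were 76.6% and 39.5%. The 3 members whose interval reached past 1 were Pcna, Mcm6 and E2f8, all on the higher side. A difference of over 0.5 in either direction was measured for 4 of the 40 members, beside 9.66% of all genes and 20.9% of genes above background on at least 1 array. None of the 40 differed by over 1, a size that 3.28% of all genes and 7.21% of those above background passed.

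**Figure D1:**
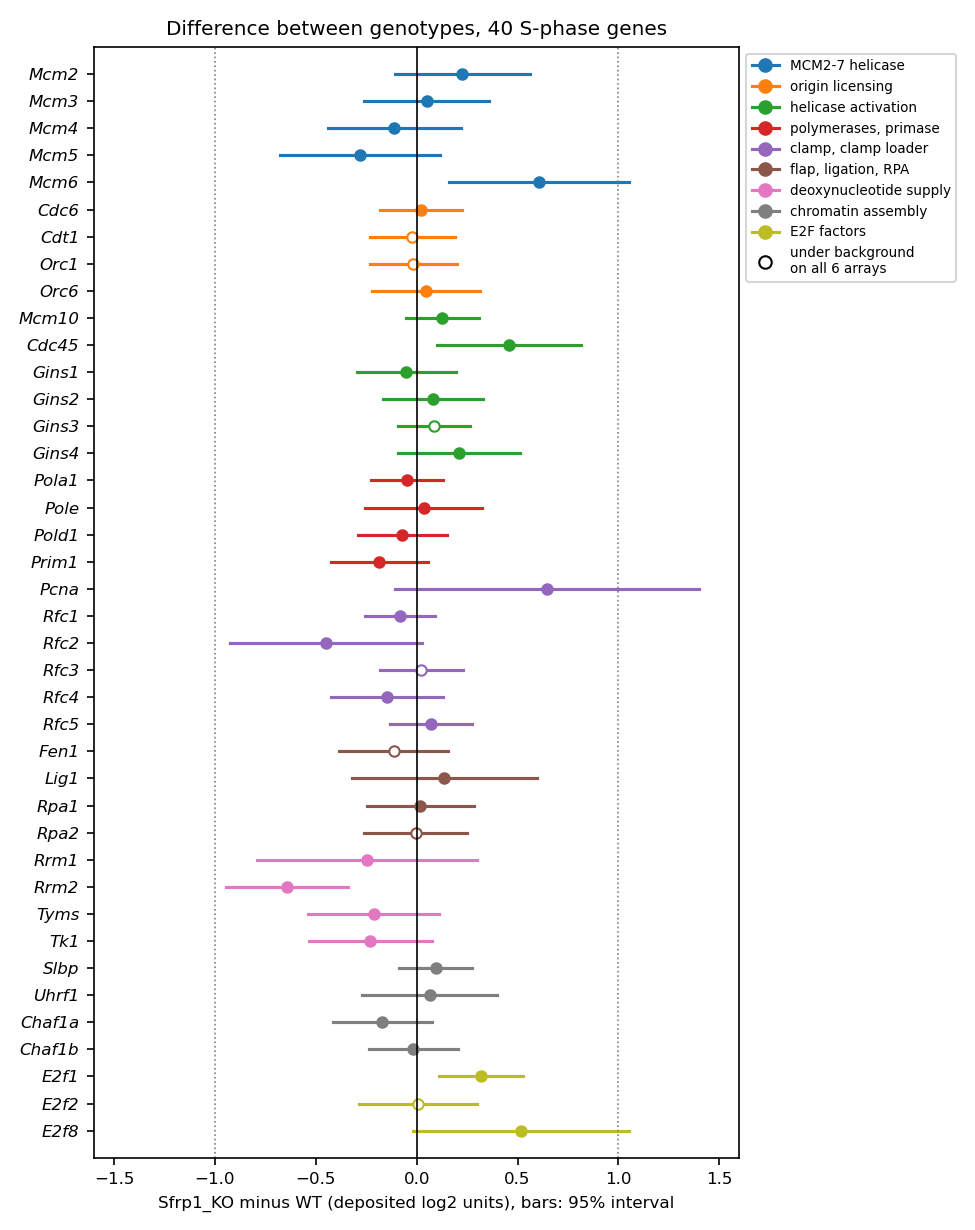
Difference between the genotypes for each of the 40 measured S-phase genes, in deposited log2 units on the x axis, ordered by role on the y axis and coloured by it, with 95% intervals from limma. Points lie between -0.64 (Rrm2) and 0.64 (Pcna), and open points mark the 7 genes under background on all 6 arrays.

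Promoter sequence was not used to choose the genes. RefSeq promoter windows of build GRCm38.p6, reaching from 250 bases before a gene's start to 50 after it, were at hand for 34 of the 40 members (39 windows). E2F-type matches were searched on both strands as TTTCGCGC, TTTGGCGC, TTTCCCGC and TTTGCCGC, and matches may overlap. They occurred in 13 member windows, 33.3%, beside 2.26% of 32851 windows of all genes and 1 of 34 windows (2.94%) of mitosis genes. The CCAAT box (CCAAT) was in 64.1% of member windows and in 37.4% of all, and the GC box (GGGCGG) in 71.8% and 35.7%. Windows of mitosis genes held both more often than the members did, at 76.5% and 82.4%. A match describes the letters of the window and no binding was measured here.

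The windows of the 3 members with the largest differences are printed with E2F-type matches in capitals, to set a promoter with such matches beside a pair without. They are Mcm6 (chr1:128359656-128359955, minus strand), Pcna (chr2:132253131-132253430, minus strand) and Rrm2 (chr12:24708004-24708303, plus strand), each read 5′ to 3′ along the gene.
Mcm6: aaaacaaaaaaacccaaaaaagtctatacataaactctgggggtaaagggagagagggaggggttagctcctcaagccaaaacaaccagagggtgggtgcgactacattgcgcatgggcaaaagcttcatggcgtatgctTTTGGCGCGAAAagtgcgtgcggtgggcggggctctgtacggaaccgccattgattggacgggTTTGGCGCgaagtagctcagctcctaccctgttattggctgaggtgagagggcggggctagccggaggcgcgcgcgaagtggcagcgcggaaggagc
Pcna: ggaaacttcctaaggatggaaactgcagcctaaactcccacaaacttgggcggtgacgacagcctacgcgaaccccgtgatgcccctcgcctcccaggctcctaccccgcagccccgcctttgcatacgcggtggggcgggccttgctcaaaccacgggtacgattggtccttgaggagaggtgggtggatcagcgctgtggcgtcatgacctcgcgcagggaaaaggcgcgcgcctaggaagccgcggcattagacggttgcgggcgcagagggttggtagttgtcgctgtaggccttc
Rrm2: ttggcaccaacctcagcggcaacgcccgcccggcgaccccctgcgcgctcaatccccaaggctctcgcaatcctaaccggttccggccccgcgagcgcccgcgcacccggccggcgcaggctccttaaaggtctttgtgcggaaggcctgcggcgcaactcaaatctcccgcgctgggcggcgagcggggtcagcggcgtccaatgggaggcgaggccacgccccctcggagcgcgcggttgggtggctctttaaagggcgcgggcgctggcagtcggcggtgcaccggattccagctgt
Mcm6 holds 3 matches, of which the pair starting at -110 and -106 from the gene's start overlap, while the windows of Pcna and Rrm2 hold none of these letters. CCAAT boxes lie at -57 and -14 in Mcm6, at -87 in Pcna and at -50 in Rrm2, and each of the 3 windows holds 2 GC boxes. The window of E2f8, the gene with the next largest difference, holds no E2F-type match either.

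The 12 other members with an E2F-type match are shown by the match in capitals and up to 10 bases on each side, cut at the window's end, to show the letters that were matched.
Mcm3 (chr1:20820263-20820303, minus strand): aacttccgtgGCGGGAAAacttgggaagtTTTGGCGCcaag
Orc1 (chr4:108579417-108579444, plus strand): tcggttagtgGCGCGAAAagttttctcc
E2f2 (chr4:136172303-136172323, plus strand): cggcatatagTTTGGCGCtaa
Rfc3 (chr5:151651191-151651228, minus strand): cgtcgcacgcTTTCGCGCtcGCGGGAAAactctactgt
Lig1 (chr7:13278842-13278869, plus strand): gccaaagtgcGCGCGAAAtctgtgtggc
Pold1 (chr7:44548766-44548786, minus strand): gtatcttgtgGCGGGAAAagc
Mcm5 (chr8:75109346-75109377, plus strand): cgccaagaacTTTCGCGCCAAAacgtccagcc
Gins3 (chr8:95633508-95633535, plus strand): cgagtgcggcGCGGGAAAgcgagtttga
Cdt1 (chr8:122568037-122568064, plus strand): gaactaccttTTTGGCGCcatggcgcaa
Cdc6 (chr11:98908003-98908030, plus strand): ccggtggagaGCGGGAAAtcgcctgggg
Uhrf1 (chr17:56304118-56304145, plus strand): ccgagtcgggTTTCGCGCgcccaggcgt
Pola1 (chrX:93632276-93632303, minus strand): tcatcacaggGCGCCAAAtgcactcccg
Mcm3 and Rfc3 carry a pair of matches on opposite strands, and in Mcm5, as in Mcm6, a pair overlaps. Among the 13 members with a match the differences had a median of 0.02 and ran from -0.28 to 0.61, and 8 were above 0. Among the 21 members with a window and no match the median was -0.00, the range -0.64 to 0.64, and 10 were above 0. Neither set held a called gene. Arrays did not overlap between the genotypes for 1 of the 13 and for 7 of the 21. The shares without overlap were 19.9% of all genes and 30.6% of genes above background on at least 1 array. Cdt1, Orc1, Gins3, Rfc3 and E2f2 among the members with a match were under background on every array. So were Fen1 and Rpa2 among those without. The medians, the counts above 0 and the counts of arrays without overlap include these genes, from which no difference is read.

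The MCM2-7 complex is a ring of 6 related subunits that unwinds DNA at the fork. Mcm6 stood at 6.43, 6.59 and 5.94 on the WT arrays and at 6.91, 7.11 and 6.76 on the Sfrp1_KO arrays. All Sfrp1_KO arrays were above all WT arrays, and WT replicate 3 was the lowest. The difference was 0.61 (SE 0.19, 95% interval 0.16 to 1.05), with a limma adjusted p of 0.187 and a two-sided exact permutation p of 0.1, the smallest that 3 arrays against 3 can give. Without WT replicate 3 the difference was 0.42.

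The other measured subunits overlapped between the genotypes. Mcm2 stood at 6.40, 6.61 and 6.43 in WT and at 6.78, 6.90 and 6.43 in Sfrp1_KO, a difference of 0.23 (SE 0.14). Mcm5 pointed the other way, with 6.37, 6.83 and 6.74 against 6.53, 6.46 and 6.11 (-0.28, SE 0.16). Mcm3 and Mcm4 differed by 0.05 (SE 0.13) and -0.11 (SE 0.14). Limma adjusted p-values of these 4 lay between 0.555 and 0.949.

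Among the proteins that recognise and license origins, Cdc6 stood at 5.66, 5.77 and 5.59 in WT and at 5.72, 5.63 and 5.74 in Sfrp1_KO. The genotypes overlapped, and the difference was 0.02 (95% interval -0.18 to 0.22). Orc6, the smallest subunit of the origin recognition complex, differed by 0.05 (-0.22 to 0.32). Orc1, its largest subunit, and Cdt1, which brings the MCM ring to the origin, were under background on all 6 arrays, so no difference is read from them.

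Helicase activation held 6 members, 5 of which had a difference above 0, as 13807 of all 30142 genes did. The 5 include Gins3, which was under background on all 6 arrays, so no difference is read from it. Cdc45, which joins MCM2-7 and GINS in the active helicase, stood at 6.23, 6.02 and 6.03 in WT and at 6.81, 6.57 and 6.28 in Sfrp1_KO. The arrays did not overlap, though Sfrp1_KO replicate 3 lay just above WT replicate 1. The difference was 0.46 (SE 0.15, 95% interval 0.10 to 0.81; limma adjusted p = 0.213). Mcm10, a scaffold that is needed for origin firing, had no overlap either, with 5.12, 5.19 and 5.17 against 5.36, 5.27 and 5.24, at levels close to background (0.13, SE 0.08; limma adjusted p = 0.559).

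The GINS tetramer is built from 4 related proteins. Gins4 stood at 6.58, 6.14 and 6.32 in WT and at 6.59, 6.61 and 6.48 in Sfrp1_KO, overlapping through WT replicate 1 (0.21, SE 0.13). Gins1 differed by -0.05 (SE 0.10). Gins2 was above background on 2 WT arrays and 1 Sfrp1_KO array, and Gins3 on none.

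The polymerases were nearly level, though Pola1 and Pold1 lay not far above background (4.82 to 5.10 over the arrays). Pola1, the catalytic subunit of the polymerase that primes each new strand, stood at 5.27, 5.24 and 5.25 in WT and at 5.27, 5.18 and 5.16 in Sfrp1_KO (-0.05, 95% interval -0.23 to 0.13). Pole and Pold1, the catalytic subunits of the leading- and lagging-strand polymerases, differed by 0.04 (-0.25 to 0.33) and -0.07 (-0.29 to 0.15). Prim1, the primase that lays down RNA primers, stood at 5.28, 5.25 and 5.13 against 4.92, 5.19 and 4.99. Its genotypes overlapped, only 1 of the 3 Sfrp1_KO arrays was above background, and the difference was -0.18 (-0.42 to 0.05; limma adjusted p = 0.505).

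PCNA is the sliding clamp that holds polymerases on DNA, and replication factor C loads it. Pcna stood at 8.99, 8.45 and 8.66 in WT and at 9.40, 9.93 and 8.70 in Sfrp1_KO. Sfrp1_KO replicates 1 and 2 were above all WT arrays and replicate 3 was among them. The difference was 0.64 (SE 0.31, 95% interval -0.11 to 1.40; limma adjusted p = 0.440), and 0.97 without Sfrp1_KO replicate 3 (limma adjusted p = 0.135). Without Sfrp1_KO replicate 2 it was 0.35.

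Rfc2, a subunit of the loader, stood at 6.21, 5.98 and 5.51 in WT and at 5.64, 5.47 and 5.23 in Sfrp1_KO. WT replicate 3 lay within the range of the Sfrp1_KO arrays, and the difference was -0.45 (SE 0.20, 95% interval -0.93 to 0.02; limma adjusted p = 0.377). Rfc1, the large subunit, had arrays that did not overlap, at 5.91, 5.87 and 5.92 against 5.86, 5.77 and 5.82, but by a difference of only -0.08 (SE 0.07). Rfc4 and Rfc5 differed by -0.15 (SE 0.12) and 0.07 (SE 0.08), and Rfc3 was under background throughout.

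Of the genes that finish and protect the new strand, Lig1, the ligase that joins Okazaki fragments, stood at 6.72, 7.26 and 6.61 in WT and at 7.10, 7.10 and 6.79 in Sfrp1_KO (0.14, SE 0.19). WT replicate 2 was the highest of all 6 arrays. Rpa1, the large subunit of the single-strand binding protein RPA, differed by 0.02 (SE 0.11). Rpa2 and the flap endonuclease gene Fen1 were under background on every array.

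All 4 genes of deoxynucleotide supply had a difference below 0, as 16335 of all 30142 genes did. This group held the member nearest to a call. Rrm2, the regulated small subunit of ribonucleotide reductase, stood at 6.37, 6.63 and 6.37 in WT and at 5.81, 5.995 and 5.63 in Sfrp1_KO. Each Sfrp1_KO array was below each WT array. The difference was -0.64 (SE 0.13, 95% interval -0.95 to -0.34), with a limma adjusted p of 0.0528 and a two-sided exact permutation p of 0.1. The limma adjusted p was 0.0447 when dim features were dropped before the fit and 0.0362 when arrays were weighted, both past the threshold. With any 1 array left out it lay between 0.0919 and 0.180.

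Rrm1, the large subunit of the same enzyme, stood at 6.71, 7.56 and 6.76 in WT and at 6.77, 6.81 and 6.71 in Sfrp1_KO. Its difference of -0.25 (SE 0.23) came with 1 high array, WT replicate 2, and the other 5 arrays lay between 6.71 and 6.81. Tk1, the thymidine kinase of the salvage pathway, stood at 5.89, 5.84 and 5.79 against 5.74, 5.75 and 5.35, without overlap (-0.23, SE 0.13; limma adjusted p = 0.517). Without Sfrp1_KO replicate 3, the lowest array, the difference of Tk1 was -0.10. Tyms, the thymidylate synthase, overlapped between genotypes (-0.21, SE 0.13) and differed by -0.08 without that array.

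**Figure D2:**
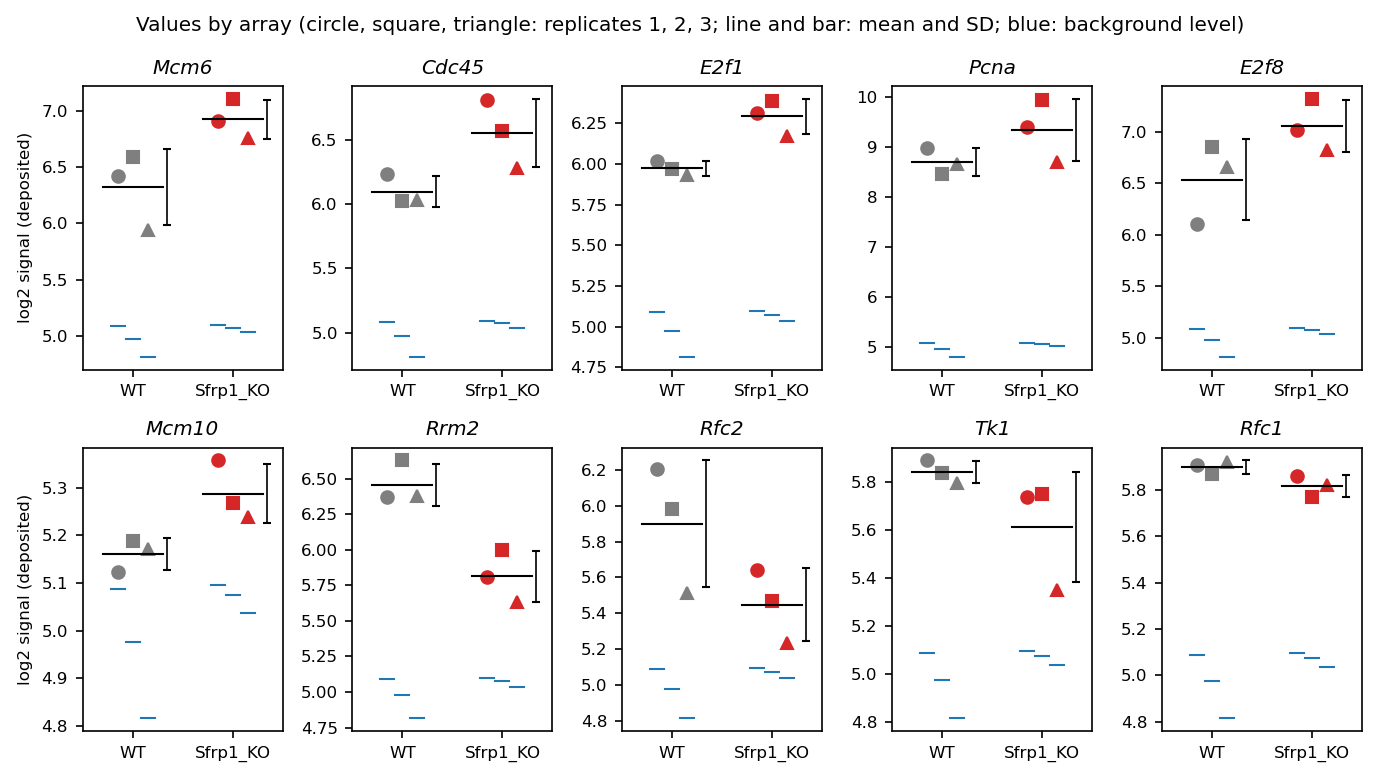
Deposited log2 signal (y axis, a separate range in each panel) on each array of 10 S-phase genes, chosen for the size of the difference or for arrays that do not overlap, with WT in grey and Sfrp1_KO in red, the mean as a line, the SD as a bar beside it and each array's background level as a blue tick. The 3 Sfrp1_KO values of Rrm2 (5.63 to 5.995) lie below the 3 WT values (6.37 to 6.63), those of Mcm6 above, and Sfrp1_KO replicate 3 of Pcna (8.70) lies among the WT arrays.

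Genes that rebuild chromatin behind the fork were close to level. Slbp, which binds the stem-loop of histone mRNA, had arrays that separated by a narrow margin, at 5.70, 5.68 and 5.68 in WT and 5.71, 5.83 and 5.82 in Sfrp1_KO (0.10, SE 0.08; limma adjusted p = 0.701). Chaf1a, the large subunit of the chromatin assembly factor, differed by -0.17 (SE 0.10) and its partner Chaf1b by -0.02 (SE 0.09). Chaf1b was above background on 2 of the 3 WT arrays and on all 3 Sfrp1_KO arrays. Uhrf1, which guides maintenance DNA methylation, differed by 0.07 (SE 0.14).

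Of the 3 E2F factors among the members, E2f1 and E2f8 were above background and neither passed. E2f1, an activator of S-phase genes, stood at 6.02, 5.97 and 5.93 in WT and at 6.32, 6.39 and 6.17 in Sfrp1_KO. There was no overlap, and the difference was 0.32 (SE 0.09, 95% interval 0.11 to 0.53; limma adjusted p = 0.134). A further quantile normalization gave 0.35 and brought it past the threshold (limma adjusted p = 0.0387). E2f8, an atypical E2F that represses E2F targets, stood at 6.10, 6.86 and 6.66 against 7.02, 7.32 and 6.82, with Sfrp1_KO replicate 3 below WT replicate 2 (0.52, SE 0.22; limma adjusted p = 0.366). E2f2 was under background on all arrays.

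In all, 8 of the 40 members had arrays that did not overlap between genotypes, Mcm6, Cdc45, Mcm10, Slbp and E2f1 on the higher side and Rrm2, Tk1 and Rfc1 on the lower. That is 8 of 40, where 19.9% of all genes and 30.6% of genes above background on at least 1 array did not overlap. By side, the 5 higher and 3 lower stand beside 9.1% and 10.8% of all genes and 13.5% and 17.1% of those above background. For Slbp, Mcm10 and Rfc1 the difference was 0.13 or smaller in size.

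Sfrp1_KO replicate 3 was the lowest of its genotype for 32 of the 40 members (80.0%) and for 29 of the 33 members above background on at least 1 array (87.9%). Over all genes it was the lowest for 31.1%, and over genes above background on at least 1 array for 48.4%. The median deviation of the 40 members from their own means over the 6 arrays was 0.06, 0.05 and -0.09 on Sfrp1_KO replicates 1, 2 and 3, and -0.005, 0.03 and -0.06 on the WT arrays. WT replicate 3 and Sfrp1_KO replicate 3 had the lowest median of their genotypes.

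Other measures moved with Sfrp1_KO replicate 3 as well. Cd34 stood at 11.23, 11.55 and 10.19 on the Sfrp1_KO arrays, the mean of 13 leukocyte and macrophage markers at 5.49, 5.21 and 4.87, and the mean of 38 mitosis and G2/M genes at 6.31, 6.44 and 6.08. The part of these in the level of the replication genes was not tested. With that array left out none of the 40 members passed by limma, the median difference was 0.04, and that of Cdc45 was 0.59 (limma adjusted p = 0.10).

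**Figure D3:**
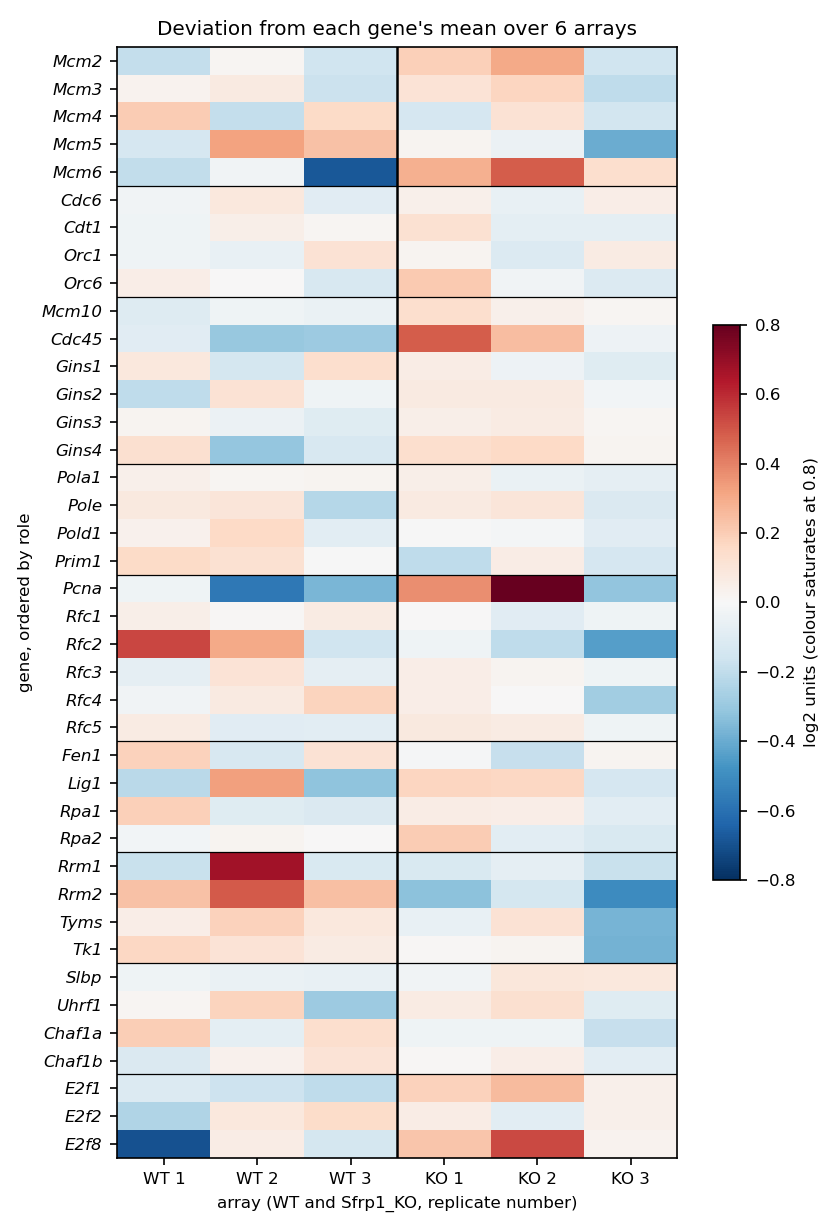
Deviation of each array from a gene's mean over the 6 arrays, in log2 units, for the 40 S-phase genes in rows ordered by role and the 6 arrays in columns, red above the mean and blue below. Sfrp1_KO replicate 3 is the lowest Sfrp1_KO array for 32 genes, and Rrm2 and Mcm6 differ in colour between the genotypes.

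Cells of other types could bring replication transcripts of their own. By limma 14.4% of all genes had an unadjusted p under 0.05. Of 13 leukocyte and macrophage markers none passed by limma and 9 had such an unadjusted p. Their mean level ran from 4.57 to 4.66 in WT and from 4.87 to 5.49 in Sfrp1_KO, with Lyz2 the largest difference (4.94 ± 0.22 and 6.91 ± 1.00; SD, n = 3) and Ptprc under background on all arrays. Of 8 fibroblast markers 5 had a difference above 0, and Pdgfrb rose (3.72, SE 0.38, limma adjusted p = 0.00696). Dcn, Col3a1, Col1a2 and Fap differed by 2.58, 0.95, 0.75 and 0.18, and Fap was under background on every array. Col1a1, Lum and Dpt had differences of -0.45, -0.59 and -0.11. Arrays did not overlap for 3 of the 8, all on the higher side, beside 9.1% of all genes. The mean level of the 8 markers was 5.42, 5.33 and 6.72 on the WT arrays and 6.56, 7.12 and 6.41 on the Sfrp1_KO arrays. WT replicate 3, the WT array with the lowest median of the replication genes, was the highest WT array for 8 of the 8 fibroblast markers, with Dcn at 10.56 against 6.54 and 6.58. It was also the highest WT array for 9 of the 9 endothelial markers. Over all genes it was the highest WT array for 36.6%, and over genes above background on at least 1 array for 29.1%. Of 9 endothelial, 8 T and B cell, 7 melanocyte and 1 erythroid markers none passed by limma, and 2, 0, 1 and 0 had an unadjusted p under 0.05. Cdh5, an endothelial marker, stood at 4.22, 4.36 and 5.16 in WT and at 7.15, 6.69 and 4.88 in Sfrp1_KO (1.66, SE 0.60). Flt1 was higher in Sfrp1_KO by at least 0.45, without overlap, and 7 of the 9 endothelial markers had a difference below 0. Mean levels in WT and in Sfrp1_KO ran from 4.33 to 4.82 and from 4.53 to 4.76 for the endothelial markers, and from 4.15 to 4.39 and from 4.14 to 4.28 for those of T and B cells. The melanocyte markers lay at 4.30 to 4.55 and 4.36 to 4.60 and the erythroid marker at 4.36 to 4.64 and 4.30 to 4.42. Under background on every array were 5 of the 13 leukocyte, 5 of the 9 endothelial, 7 of the 8 T and B cell, 6 of the 7 melanocyte, 1 of the 8 fibroblast markers and the erythroid one. Their part in the level of the replication genes was not tested.

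Further genes of replication and the G1/S step were read from a list of 62, of which 59 were measured. Of the 59, 1 fell and 0 rose, where 1.45% and 1.83% of all genes did. Ccne1, which encodes cyclin E1, the partner of CDK2 at the entry into S phase, stood at 5.50, 5.90 and 5.88 in WT and at 5.05, 4.76 and 4.71 in Sfrp1_KO, where every array was under background. Its fall was at least 0.69 (limma adjusted p = 0.0279), and the call ended without WT replicate 2 or 3 or any 1 of the Sfrp1_KO arrays (limma adjusted p up to 0.128). Ccne2, the related cyclin E2 gene, differed by 0.14 (SE 0.10). The median of the 59 was -0.01, and 28 were above 0.

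Near the threshold in that list were Top2a, the topoisomerase that untangles replicated DNA, at 6.34 ± 0.15 and 7.09 ± 0.26 (SD, n = 3; limma adjusted p = 0.0578), and Dctd, which supplies the substrate of thymidylate synthase, at 5.87 ± 0.31 and 5.07 ± 0.10 (SD, n = 3; limma adjusted p = 0.0604). Both separated the arrays of the genotypes, and 2 of the 3 Sfrp1_KO arrays of Dctd were under background. Without WT replicate 2 Dctd passed on the lower side (limma adjusted p = 0.0184). Without Sfrp1_KO replicate 3, Pola2 (limma adjusted p = 0.0158) and Ccna2 (limma adjusted p = 0.0426) passed on the higher side. Pola2, the partner subunit of Pola1, stood at 7.96, 7.92 and 6.83 on the Sfrp1_KO arrays.

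Of 15 other genes of the E2F and pocket protein network 1 rose and 0 fell, where 1.83% and 1.45% of all genes and 3.86% and 3.11% of genes above background on at least 1 array did. Rbbp4, a histone chaperone found in chromatin assembly factor and in retinoblastoma complexes, stood at 6.26, 6.19 and 6.25 in WT and at 7.11, 7.06 and 6.77 in Sfrp1_KO (0.75, SE 0.11; limma adjusted p = 0.0215). No arrays overlapped. The call ended without any 1 of the WT arrays or Sfrp1_KO replicate 1 or 2 (limma adjusted p up to 0.105). Rb1 differed by -0.003 (SE 0.15), and the pocket protein gene Rbl2 stood at 5.78 ± 0.06 and 6.29 ± 0.32 (SD, n = 3; limma adjusted p = 0.199).

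Upstream of these genes, among 11 G1 cyclins, cyclin-dependent kinases and their inhibitors, 1 fell and 0 rose, beside the same shares of all genes (1.45% lower, 1.83% higher). Ccnd2, which encodes cyclin D2, stood at 9.81, 8.35 and 9.88 in WT and at 5.79, 5.75 and 5.64 in Sfrp1_KO, with no overlap (-3.61, SE 0.40; limma adjusted p = 0.00895). Without Sfrp1_KO replicate 2 its limma adjusted p was 0.0524. Its kinase partners Cdk4 and Cdk6 stood at 9.53 ± 0.52 and 9.81 ± 0.54 and at 7.57 ± 0.50 and 6.64 ± 0.33 (SD, n = 3), and neither passed.

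The mitosis and G2/M genes, transcribed later in the cycle, also held no call among 38 by limma in either direction, with 9 at an unadjusted p under 0.05, as 14.4% of all genes and 25.9% of genes above background on at least 1 array were. Of the 38, 36 were above background on at least 1 array. Their differences lay above 0 for 32 of the 38, with a median of 0.15. Differences lay above 0 for 21 of the 40 replication genes, with a median of 0.01, and for 13807 of all 30142 genes. Arrays did not overlap for 13 of the 38, 11 of them on the higher side, where 9.1% of all genes and 13.5% of those above background did so on that side. The difference between the lists was not tested. Ndc80, a kinetochore protein, had the smallest p (5.62 ± 0.17 and 6.09 ± 0.10; SD, n = 3; limma adjusted p = 0.0950). Kif20a, a kinesin of the central spindle, differed by 0.38 (SE 0.09) and Prc1, which bundles its microtubules, by 0.54 (SE 0.14). Anln, an actin-binding protein of the cleavage furrow, had the largest value (0.99, SE 0.30; limma adjusted p = 0.184), and Mki67 stood at 9.18 ± 0.51 and 9.89 ± 0.70 (SD, n = 3; limma adjusted p = 0.526).

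**Figure D4:**
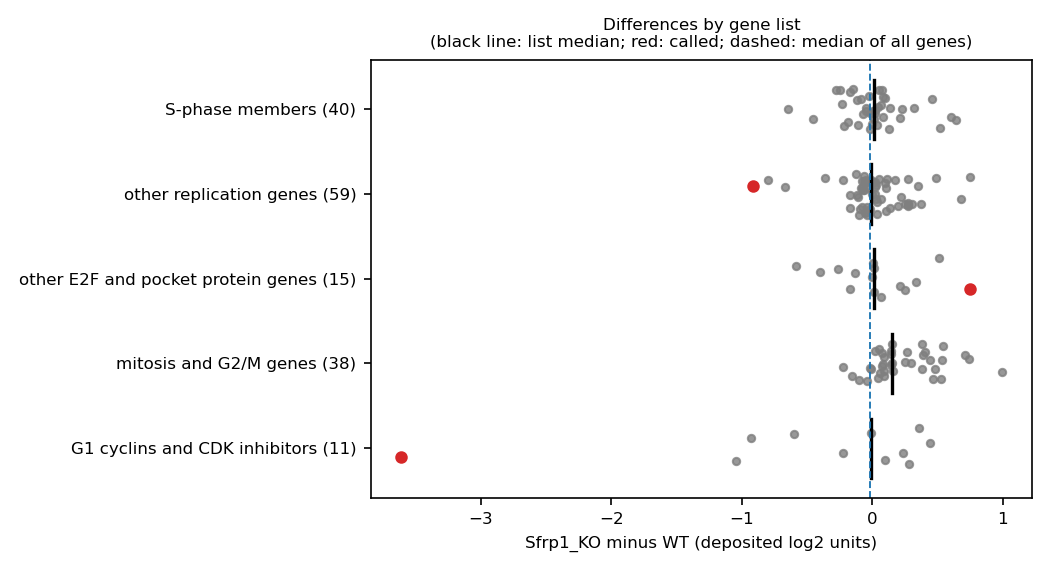
Difference between the genotypes (x axis, deposited log2 units) for each gene of 5 lists (y axis, with the number measured), with called genes in red, list medians as black lines and the median of all genes (-0.01) as a dashed line; vertical scatter has no meaning. The 40 S-phase genes hold no called gene, and the called genes of the other lists are Ccnd2 (-3.61), Rbbp4 (0.75) and Ccne1, plotted at its measured difference although every Sfrp1_KO array was under background and its fall is known only as at least 0.69.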

How the data were processed

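Expression was measured on 6 Affymetrix MTA 1.0 arrays, 3 for each genotype, with groups and replicate numbers from the sample titles. The deposited values are log2 probe set signals made by the authors. Affymetrix Expression Console and RMA are named, per the submitters' processing notes, and for neither is a version or an annotation build given in the sources used here. Features with 1 gene symbol in the platform annotation (30604 of 72688; 2146 had several) were named, symbols were updated through gene identifiers of a RefSeq table (GRCm38.p6), and the brightest feature of each of 355 genes with more than 1 was kept. The test was limma's moderated one, two-sided (limma 3.58.1, R 4.3.3; Benjamini-Hochberg over all 30142 genes), without a filter on dim genes, and the procedure was tested on simulated data. Where all arrays of 1 genotype were under background, the difference is a lower bound: the other genotype's mean minus the mean background level of those arrays. Single genes also had an exact permutation test. The number of arrays limits precision. The members and lists were chosen with earlier results of these data known. Genes named beyond the members were those called in a list, or else those nearest to the threshold. Ccne2, Top2a, Dctd, Pola2, Ccna2, Rb1, Rbl2, Cdk4, Cdk6, Mki67, Anln, Ptprc, Col1a1, Lum, Dpt and Dcn were picked with their values in view. So were Col3a1, Col1a2, Fap, Cdh5 and Flt1. The alternatives tried were a replicate block, dropping dim features, all features of a gene averaged, quantile normalization once more, equal array medians, array weights, other variance options and each array left out.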

Additional observations from a re-analysis of the deposited data

How the results depend on the processing

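Of the 40 replication genes 38 were called under none of 14 alternatives. The count was 1 lower (Rrm2) with array weights or after dropping dim features and 1 higher (E2f1) after quantile normalization once more, and 0 in both directions without any 1 array. The median difference ran from -0.02 to 0.04 over the arrays left out in turn, and 15 uncalled members, all within 0.25 of 0, changed sign in some setting. Over all genes 552 rose and 437 fell; these were 297 and 238 with the replicate block, 14 and 21 without variance moderation, and 892 and 563 after quantile normalization once more (61.3% of calls higher, beside 55.8%). Leaving out 1 array gave 191 to 487 higher and 100 to 407 lower, at 346 and 407, 299 and 358, and 261 and 315 without WT replicates 1, 2 and 3, and 223 and 125, 191 and 100, and 487 and 190 without Sfrp1_KO replicates 1, 2 and 3. The share of calls that were higher then ran from 45.3% to 71.9%. The cause was not tested.

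Other replication genes called higher numbered 1 with the replicate block, dim features left out, quantile normalization or array weights, and 0 to 2 without 1 array. Those called lower numbered 2 with dim features left out, quantile normalization, array weights or the trend and robust options, 0 with the replicate block or without moderation, and 0 to 1 without 1 array. In the E2F and pocket protein list the count higher was 0 with the replicate block or without moderation and 0 to 1 without 1 array. Mitosis genes called higher numbered 2 after quantile normalization, 1 with array weights and 0 to 1 without 1 array. G1 genes called lower numbered 0 without moderation and 0 to 1 without 1 array. Same-numbered arrays had deviations correlated at 0.18, -0.12 and 0.17 across genes. For WT and Sfrp1_KO arrays of different numbers the correlations ran from -0.33 to 0.25, so the numbers were not taken as pairs. The replicate block changed no call of the 40 genes, while Ccne1 and Rbbp4 had limma adjusted p-values of 0.108 and 0.0668 with it. Signal over background limits 7 of the 40 genes, which were under it on every array.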
